A study of Heterocephalus glaber with 3 samples.

Results

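The cells described here were mesenchymal cells of naked mole-rat lung tumours selected on the summed transcripts of MMP3, IGF2 and COL1A1, a stromelysin, a fetal growth factor and a chain of type I collagen. The sum can be high without every gene: the median cell of animals 2 and 3 had 0 MMP3 UMIs. A cell entered when MMP3, IGF2 and COL1A1 together made up at least 20 UMIs per 10000 of the cell (p10k, where a UMI is 1 counted transcript molecule) and at least 2 of the 3 genes were seen. Cells with 2 p10k or more of MFAP4 and FIBIN (genes of resident lung fibroblasts), or 5 p10k or more of DMP1 and IBSP (bone matrix) or of KRT14 and SPINK5 (basal epithelium), were left out. This gate held 809 of 25044 cells that passed quality control, 423 in animal 1, 141 in animal 2 and 245 in animal 3.

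The study infected naked mole-rats (Heterocephalus glaber) with an adenovirus carrying CRISPR reagents, and the labels give the same edits for all 3 animals, among them loss of Rb and an Eml4-Alk inversion. At 15 weeks after infection the lungs were collected, tumours were cut out by hand, and each animal gave 1 library with 10x Genomics 3' chemistry. The labels give 1 group and name no untreated animal, so every comparison was between cells of the same animal. The virus is not restricted to 1 cell type by anything the labels state, hand separation can leave normal tissue in a sample, and UMIs from the 3' end are the same for fused and native Alk. Each library is 1 animal. The p-values rest on how the difference between cells of the same animal varies over 3 animals, except where the block for the animal was left out. Differences in level between animals do not enter them.

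IGF2 is a paternally expressed growth factor that signals through the IGF1 and insulin receptors, and it is high in fetal mesenchyme and low in most adult tissue. IGF binding proteins hold or release it. MMP3 is a secreted protease that cuts proteoglycans and activates other matrix metalloproteinases, and COL1A1 with COL1A2 forms type I collagen, the main fibre of scar and tumour stroma. Lung fibroblasts at rest make IGF1, elastic fibre proteins and complement.

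The libraries held 76093932, 86575320 and 91949365 UMIs in animals 1, 2 and 3. Gated cells were deep, with medians of 18916, 22063 and 16075 UMIs against 4635, 5099.5 and 7938.5 in all other cells, and they held 12.9%, 4.14% and 5.71% of the UMIs. Libraries shared 24, 21 and 31 barcodes in pairs, 0 of them among gated cells. Scrublet, a doublet caller, gave a score of at least 0.2 to 20, 2 and 6 gated cells, and its automatic threshold did not work on these libraries. Intervals given below cover counting error only.

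Of 15 mesenchymal markers all were measured, and COL1A1 among them is a rule gene. The other 14 summed to 174, 161 and 130.2 p10k in gated cells, 42.1, 42.3 and 35.9 p10k in all other cells and 106, 68.5 and 92.1 p10k in MFAP4 and FIBIN cells. Against all other cells 12 of the 14 were higher in 3 of 3 animals. THY1, a surface glycoprotein of many fibroblasts, was lower, at 0.769, 0.881 and 0.215 CPM (UMIs of a gene as parts per 1000000 of the class's UMIs in an animal) against 6.04, 5.67 and 3.26. POSTN, a matricellular protein, was mixed, at 30.3, 69.6 and 16.1 CPM against 36.7, 16.6 and 32.6. Against MFAP4 and FIBIN cells 6 were higher and 5 lower in 3 of 3 animals, the lower ones being DCN, PDGFRA, POSTN, FAP and THY1. Of 8 epithelial markers 5 were measured, with a sum of 0.201, 0.0999 and 0.217 p10k and CLDN4 at 0. Of 6 basal epithelial markers 5 were measured, with a sum of 1.003, 1.27 and 1.05 p10k in gated cells. That sum was 2.76, 4.87 and 3.05 in all other cells and 0.402, 0.873 and 0.568 in MFAP4 and FIBIN cells. KRT14 UMIs were seen in 26.5%, 49.6% and 31.8% of gated cells, against 5.14%, 14.5% and 5.63% of the shallower MFAP4 and FIBIN cells. SPINK5 was at 48.9, 23.2 and 27.5 CPM against 37.5, 81.5 and 24.4 in all other cells. Markers of other types were low but present: 5 of 8 immune markers summed to 4.15, 7.27 and 5.40 p10k against 42.6, 42.3 and 47.9 in all other cells, and 4 B and plasma cell markers to 39.9, 17.8 and 72.8 against 785, 296 and 999. A UMI of PTPRC, the pan-leukocyte phosphatase, was seen in 28.4%, 44.0% and 22.4% of gated cells and in 71.7%, 82.2% and 68.4% of all others. The part of immune transcripts in the results below was not tested, beyond the values given for gated cells with no PTPRC UMI. No gene on these lists tells an edited cell from an unedited one, so the word tumour in the name was not checked.

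The share of quality-controlled cells that passed the gate was 5.24% in animal 1, 1.56% in animal 2 and 3.08% in animal 3, or 3.29% ± 1.85 (SD, n = 3). Animal 1 was highest and animal 2 lowest, and the values describe the rule. The summed level of the 3 genes had medians of 72.0, 40.5 and 49.7 p10k. Just inside the threshold, at 20 to 25 p10k, lay 31, 25 and 30 cells, and just outside, at 15 to 20 p10k, 31, 29 and 33. COL1A1 carried the gate in most cells. It was seen in 99.1%, 100% and 100% of gated cells, IGF2 in 86.8%, 90.1% and 92.7%, and MMP3 in 81.8%, 44.7% and 40%. All 3 genes were seen together in 286, 49 and 80 cells. MMP3 stood at 2728, 638 and 450.0 CPM in gated cells of animals 1, 2 and 3, IGF2 at 812, 570.2 and 603, and COL1A1 at 4997, 4622 and 5284. MMP3 was thus high in animal 1, whereas IGF2 and COL1A1 were closer between animals. It was also highest in all other cells of animal 1, at 125 against 31.8 and 26.5 CPM, so this difference was not particular to gated cells.

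The gated cells of animal 2 held a group that animals 1 and 3 nearly lacked. SPP1, which encodes the bone matrix phosphoprotein osteopontin, was at 57.8 CPM in gated cells of animal 1, 13339.5 in animal 2 and 21.7 in animal 3. In animal 2 it came from few cells: the 5 cells with most SPP1 held 71.7% of its UMIs. SPP1 UMIs were found in most cells of that library, with a median of 6.36 p10k in all other cells and 6.17 p10k in MFAP4 and FIBIN cells, and the gated median was 4.53 p10k. A level of 20 p10k, set after these values were seen, was reached by 33 of 141 gated cells of animal 2, by 3 of 423 in animal 1 and by 1 of 245 in animal 3. It was also reached by 11.4% of all other cells of animal 2, against 0.287% and 0.195% in animals 1 and 3, so it lies within the spread of SPP1 over that library. Near that level, between 10 and 40 p10k, lay 5 of the 33 cells and 7 of the other gated cells of animal 2.

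**Figure D1:**
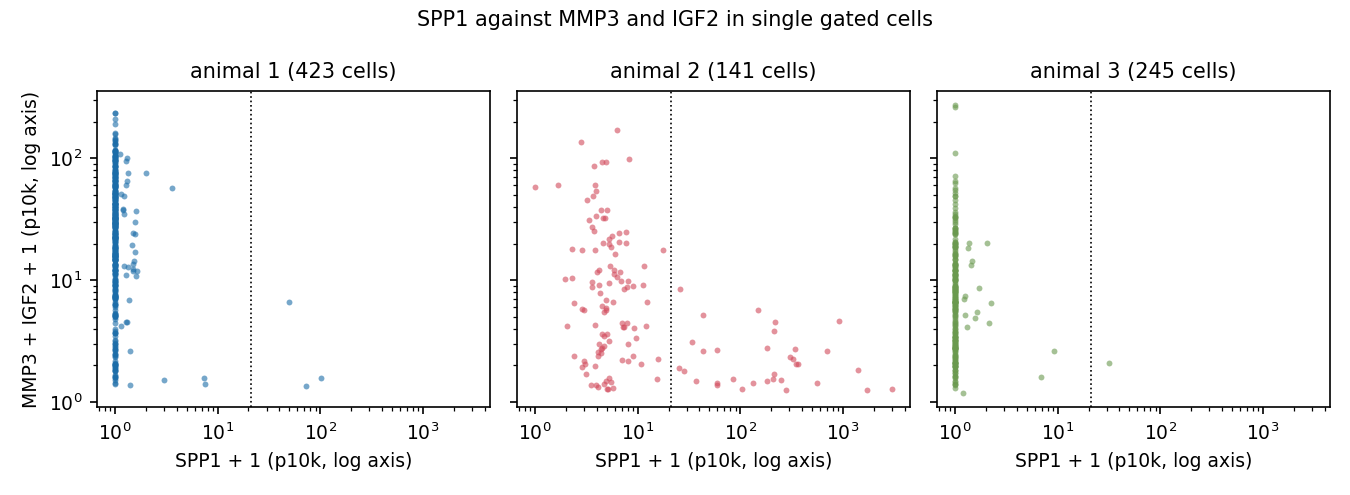
SPP1 (x axis) against the sum of MMP3 and IGF2 (y axis) in each gated cell, both as UMIs per 10000 plus 1 on log axes, with 1 panel per animal and a dotted line at 20 p10k of SPP1. In animal 2, 33 of 141 cells lie to the right of the line with at most 7.47 p10k of MMP3 and IGF2, whereas animals 1 and 3 have 3 and 1 such cells.

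The 33 cells of animal 2 had the depth of the other gated cells (median 22801 against 21403 UMIs) and 0 of them had a doublet score of at least 0.2. They carried COL1A1 at 6172 CPM but MMP3 at 32.6 and IGF2 at 85.8 CPM, against 4048, 862 and 749.7 CPM in the other 108 gated cells of that animal. The genes named next were picked after their values were seen. SP7, an osteoblast transcription factor, was at 53.2 against 6.04 CPM, DLX5, another such factor, at 134 against 22.1, PTH1R, the parathyroid hormone receptor, at 106 against 20.1, and BMP4, a bone morphogenetic protein, at 188 against 41.1 CPM. SSTR2, a somatostatin receptor, was at 141 against 1.61 CPM and WIF1, a secreted WNT inhibitor, at 152 against 5.64. DMP1 and IBSP cells of the same animal, 105 in number and left out by the rule, had SSTR2 at 275, PTH1R at 525, BMP4 at 189 and SPP1 at 209769 CPM.

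Several genes with high ratios in the whole gated population were low in those 33 cells. NOG, an inhibitor of bone morphogenetic proteins, had 0 UMIs there against 299 in the other gated cells of animal 2. BTC also had 0 UMIs, against 82. SCG2 had 0 UMIs too, but only 7 of the 141 gated cells of animal 2 had any. SFRP4, a secreted WNT-binding protein, was at 29.3 against 308 CPM, VWA1, a matrix protein of basement membranes, at 20.6 against 355, VGF at 25 against 224 and PLAU, the urokinase protease, at 12.0 against 254 CPM. These are values of 1 animal with no replicate, so no test was made. The results below were also computed without cells at 20 p10k of SPP1 or more.

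Against all other cells, gated cells had higher levels of most collagen and collagen-processing genes measured. The contrast was used by the rule, so it is a description with no test. A gene was counted when its CPM ratio, with a prior count of 0.5, was at least 2-fold in 3 of 3 animals, among 9217 genes with a mean of at least 5 CPM. By that count 798 genes (8.66%) were higher and 683 (7.41%) lower. A gene averaging under 5 CPM in all other cells could pass the filter only through gated cells, as COL5A3, LOXL2, PDGFRB and HMGA2 did. For such genes the direction was largely set in advance. The median log2 ratio over all genes was 0.24. Without the SPP1-rich cells 818 were higher and 696 lower.

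Fibrillar collagens were higher in 6 of 6 measured members above the filter, with a median log2 ratio of 3.63. COL3A1, the type III collagen chain, was at 2748, 3247 and 3147 CPM in gated cells of animals 1, 2 and 3 and at 265, 199 and 178 in all others. COL1A2 was at 3692, 2416 and 1888 against 236, 216 and 92.5 CPM, and COL5A1, a chain that sets fibril width, at 241, 212 and 291 against 26.4, 17.9 and 20. The 3 animals did not overlap between classes for any of these, in cells chosen partly on COL1A1. The share of all genes without overlap is not given here, so this adds no support. Among other collagens 4 of 5 were higher, led by the beaded filament chains COL6A1 (918, 1423 and 870.2 against 83.6, 122 and 54.5 CPM) and COL6A2.

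Enzymes and chaperones that make collagen were higher in 7 of 10, and none was lower. P4HA2, a proline hydroxylase of procollagen, was at 226, 201 and 236 CPM against 24.8, 33.5 and 24.0. LOXL2, a lysyl oxidase that cross-links fibres, was at 59.9, 37.0 and 44.4 against 4.79, 4.07 and 3.03, a median log2 ratio of 3.64 ± 0.35 (SD, n = 3). SERPINH1, the collagen chaperone, was at 996, 673 and 723 against 127, 132 and 74.7 CPM. Of matrix glycoproteins and proteoglycans 12 of 18 were higher, among them TNC, a glycoprotein of remodelling stroma, at 734, 636 and 574 against 79.4, 71.2 and 28.4 CPM.

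**Figure D2:**
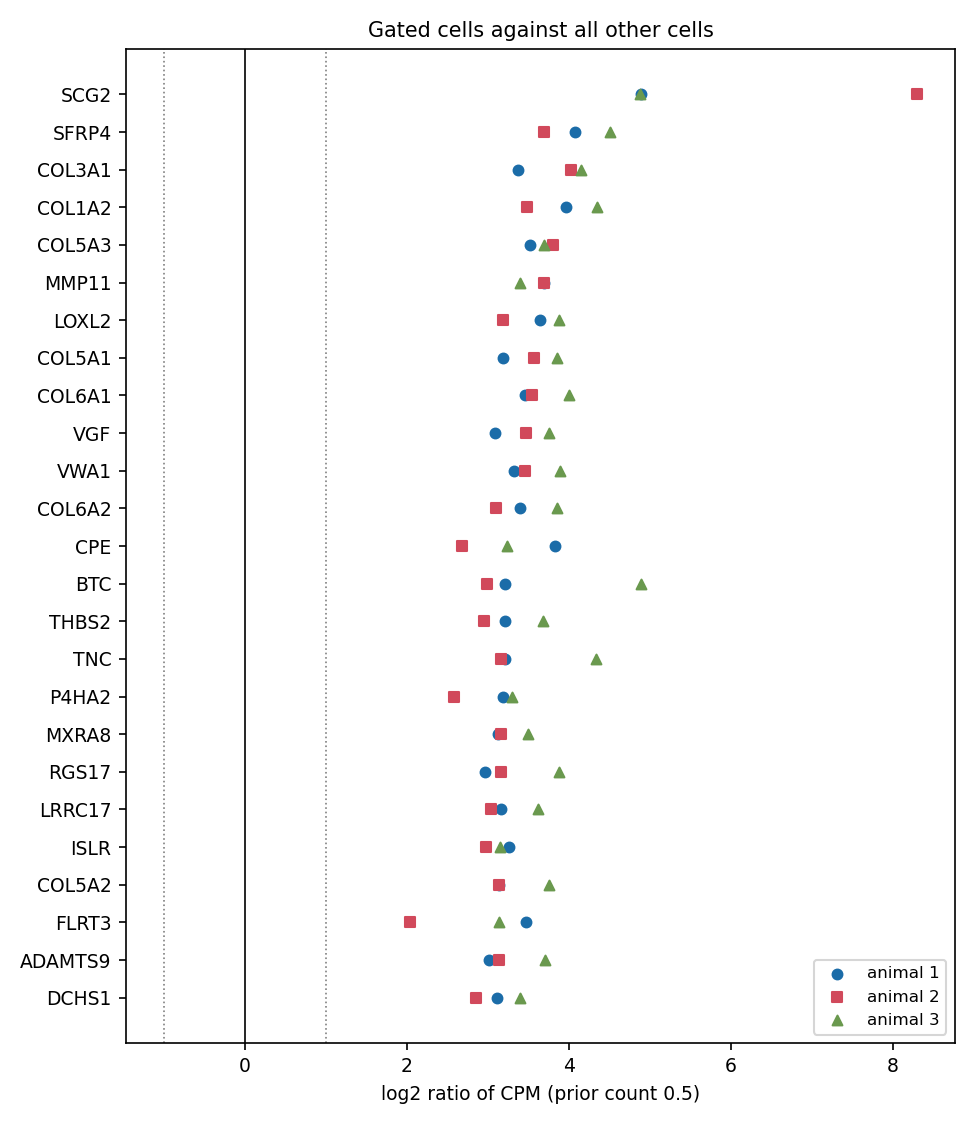
The 25 genes outside the rule with the highest median log2 ratio of CPM in gated over all other cells (x axis), among genes at 20 CPM or more in gated cells of every animal, with 1 marker per animal and dotted lines at 2-fold. All 25 lie to the right of the 2-fold line in 3 of 3 animals, and SCG2 is spread most between animals.

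The first 25 genes by ratio held collagens, matrix enzymes and secreted proteins with a neuropeptide link. SCG2, secretogranin II of dense-core granules, led with 87.6, 37.9 and 65.7 CPM against 2.93, 0.114 and 2.22. That level came from a minority of cells: 66 of 423, 7 of 141 and 32 of 245 gated cells had an SCG2 UMI, and in animal 2 the top 5 cells held 98.4% of them. VGF, a granin-type neuropeptide precursor, was more evenly spread, seen in 48.0%, 41.8% and 47.3% of cells, at 111, 170.4 and 121 CPM against 13.1, 15.4 and 8.91. CPE, the carboxypeptidase that trims peptide hormones, was at 133, 37.9 and 48.7 CPM against 9.38, 5.94 and 5.16. Of 6 neuroendocrine markers 4 were measured, with a sum of 1.04, 1.35 and 1.08 p10k in gated cells against 0.217, 0.262 and 0.167 in all others, and CALCA was at 0. NCAM1, a neural and mesenchymal adhesion molecule, was at 33.5, 38.5 and 57.9 CPM against 4.90, 5.66 and 4.55.

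Proteases other than MMP3 went both ways. Secreted metalloproteinases were higher in 4 of 8 and lower in 2. MMP11, a stromal protease, was at 267, 565 and 336 CPM against 20.7, 43.5 and 31.9, and MMP13, a collagenase, at 239, 258 and 173 against 29.4, 35.2 and 9.33. MMP7, a protease of epithelia and myeloid cells, was at 23.9, 25.6 and 20.4 CPM against 492, 365 and 585. Urokinase, PLAU, was at 753, 189 and 170.4 CPM, highest in animal 1 like MMP3, against 75.3, 36.3 and 22.8. Of 11 chemokines and cytokines 2 were higher and 5 lower. IL1B, the inflammatory interleukin, was at 93.3, 135 and 92.9 CPM against 1045, 988 and 996.

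All 4 PDGF receptors and ligands above the filter were higher, including PDGFRA at 31.4, 44.1 and 21.9 CPM against 6.24, 8.96 and 5.57. MFAP4 and FIBIN cells had more of it, at 84.3, 79.7 and 61.2 CPM. In the list of tumour dedifferentiation 12 genes were measured and 6 passed the filter, of which 5 were higher. HMGA2, a chromatin protein of fetal tissue, was at 11.3, 6.46 and 15.0 CPM against 1.89, 1.42 and 1.71. HMGA2 and, in the PDGF list, PDGFRB passed the filter only through gated cells, so their direction was largely set in advance. CDKN2B, an inhibitor of cyclin D kinases, was at 36.7, 36.7 and 28.1 CPM against 7.36, 7.35 and 6.37, while CDKN1A, another kinase inhibitor, was at 45.3, 73.4 and 49.8 against 162, 262 and 164. CD276, an immune checkpoint ligand, was at 166, 189 and 205 against 28.3, 48.7 and 33.4 CPM. The gene lists were drawn up with earlier results of these data known, so these counts are no independent evidence.

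MFAP4 and FIBIN cells were the nearest comparison, with 311, 359 and 391 cells of the same animals. They had 5 p10k or more of the pair, and the rule used both genes to part them, so this too is a description. Of 9345 genes 453 (4.85%) were at least 2-fold higher in gated cells in 3 of 3 animals and 571 (6.11%) lower, with a median log2 ratio of 0.10 over all genes. Without the SPP1-rich cells the counts were 462 and 597. Their cells were shallower than gated cells, with medians of 5687, 5707 and 5071 UMIs.

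The IGF system differed member by member. IGF2, a rule gene, was at 812, 570.2 and 603 CPM in gated cells and 73.7, 48.5 and 88.8 in MFAP4 and FIBIN cells. IGF1, the postnatal ligand of the same receptor, was at 1.32, 1.76 and 0.429 against 295, 132 and 276 CPM, a median log2 ratio of -7.75 ± 1.45 (SD, n = 3). IGF1 was lower in 3 of 3 animals, and the level of IGF2 was set by the rule. IGFBP2 was at 1161, 626 and 635 CPM against 192, 119 and 187. IGFBP4 stood at 422, 256 and 200.2 against 1575, 979 and 1460.2, IGFBP6, which binds IGF2 with preference, at 5.16, 8.52 and 5.37 against 489.8, 248 and 348, and IGFBP7 at 430.1, 271 and 365 against 3299, 2064 and 2494 CPM. IGFBP5 was at 355, 171 and 994.2 against 318, 161 and 309, higher in 3 of 3 animals but past 2-fold only in animal 3. The receptor that clears IGF2, Igf2r, was at 78.7, 89.9 and 92.9 against 48.4, 63.3 and 46.2 CPM and did not reach 2-fold in every animal.

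**Figure D3:**
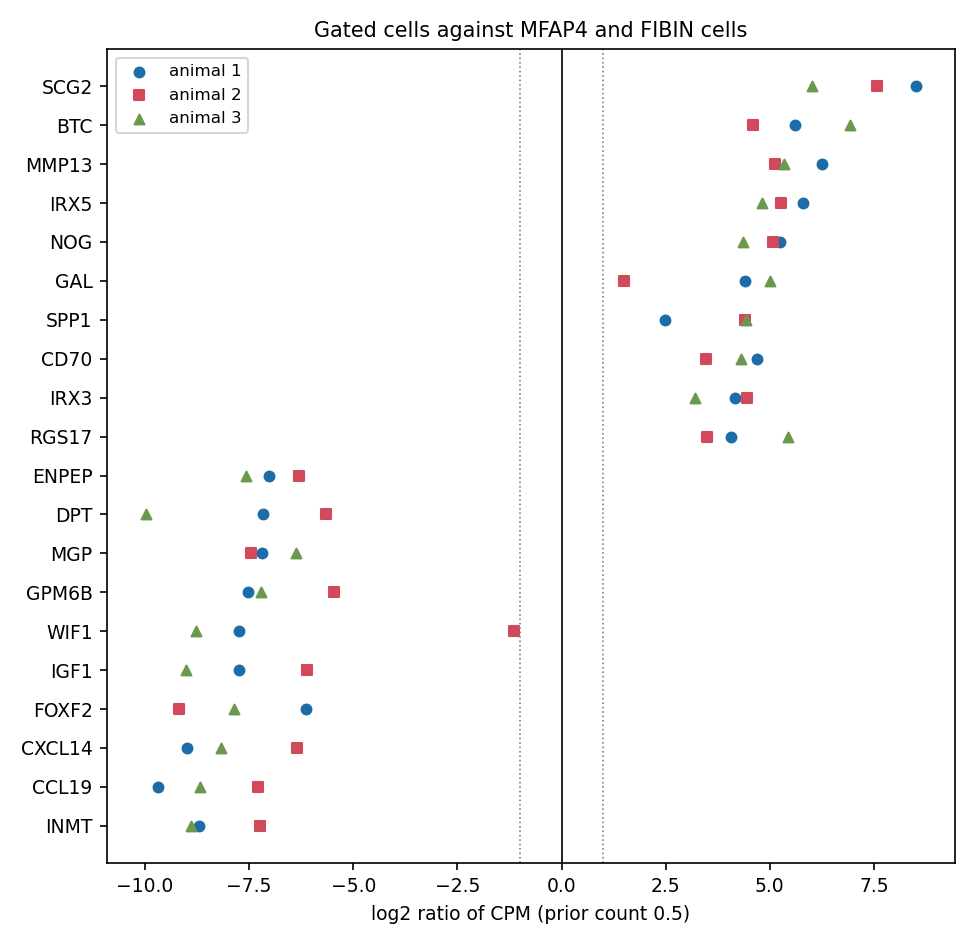
The 10 highest and 10 lowest named genes by median log2 ratio of CPM in gated over MFAP4 and FIBIN cells (x axis), with 1 marker per animal and dotted lines at 2-fold. WIF1 of animal 2 lies near the line, apart from animals 1 and 3, and SPP1 lies to the right in all 3 although its median log2 ratio is -0.38 without the SPP1-rich cells.

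Fibroblast genes of the resident lung were lower than in MFAP4 and FIBIN cells, which were themselves chosen on such genes. In the lung fibroblast list 9 of 10 tested members were lower and none higher. FGF10, CD34, DPT, SCARA5, INMT and COL13A1 passed the filter only in this comparison, through their level in MFAP4 and FIBIN cells. Their direction was thus largely set in advance. Against all other cells 2 of 4 tested members of the list were higher and 0 lower. INMT, a methyltransferase of lung fibroblasts, was at 0.110, 0.294 and 0 CPM against 68.5, 66.5 and 50.7. MGP, an inhibitor of calcification, was at 43.1, 24.1 and 66.5 against 6300.3, 4223 and 5533. All 3 tested complement genes were lower, among them C7 at 8.46, 9.99 and 10.9 against 649.7, 566 and 416 CPM. Of 5 FGF genes 4 were lower, and of 13 WNT pathway genes 8. Of these FGF1, FGF7, FGF10, FGF18, DKK2, SFRP2, RSPO3 and NKD1 again passed the filter only through MFAP4 and FIBIN cells. Against all other cells the 1 FGF gene tested was higher, and of 9 WNT pathway genes 6 were higher and 0 lower. SFRP1, a secreted WNT inhibitor, was at 1.10, 10.3 and 3.65 CPM against 345, 270.0 and 222, while 4 WNT genes were higher, among them the ligand WNT10A at 17.7, 15.9 and 7.73 against 0, 0.801 and 0.811. WNT10A in turn passed the filter only through gated cells, so its direction was also largely set in advance.

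Matrix genes differed by list in this comparison. Fibrillar collagens were higher in 4 of 6 and lower in 0, and integrins in 4 of 7. Other collagens went both ways, with 2 of 7 higher, 3 lower and a median log2 ratio of -2.15. COL13A1 and COL15A1 among them passed the filter only in this comparison. Of matrix glycoproteins 2 of 19 were higher and 6 lower, with DCN, the proteoglycan decorin, at 216, 271 and 216 against 2273, 936 and 2396 CPM. Chemokines were lower in 4 of 11, with CCL2 at 315, 126 and 55.2 against 2047, 2787 and 998. TIMP1, an inhibitor of metalloproteinases, was at 3525, 4365 and 4523 CPM against 10286, 9352 and 12716, whereas MMP13 was at 239, 258 and 173 against 2.87, 7.21 and 4.05.

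The 10 genes highest in ratio against MFAP4 and FIBIN cells were SCG2, BTC, MMP13, IRX5, NOG, GAL, SPP1, CD70, IRX3 and RGS17. They were named among genes at 20 CPM or more in gated cells of every animal. SCG2, BTC, IRX5, NOG, IRX3 and RGS17 were under 5 CPM in MFAP4 and FIBIN cells of every animal, so they passed only through gated cells. NOG was at 118, 87.8 and 54.3 CPM against 2.87, 2.40 and 2.43. BTC, a ligand of the EGF receptor, was at 35.0, 24.1 and 24.5 against 0.479, 0.801 and 0. IRX5 and IRX3, homeobox factors, were at 39.8, 38.5 and 28.5 and at 38.7, 100.5 and 28.1 CPM, against no more than 4.41 CPM. CD70, a ligand of the TNF family, was at 142, 135 and 67.8 against 5.27, 12.0 and 3.24. GAL, the galanin precursor, was at 147, 32.0 and 177 against 6.70, 11.2 and 5.27, but the top 5 cells held 49.0%, 50.5% and 77.5% of its UMIs. SPP1 belongs to this set by the naming rule, and in animal 2 its level came from the 33 cells described above.

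Alk, the receptor tyrosine kinase of the inversion, was detected in gated cells of all 3 animals. There were 81, 93 and 60 Alk UMIs, or 8.90 CPM (95% Poisson interval 7.07 to 11.1), 27.3 (22 to 33.5) and 12.9 (9.83 to 16.6). All other cells had 2.44, 10.3 and 2.61 CPM, and MFAP4 and FIBIN cells 1.44, 2.80 and 1.22 CPM from 3, 7 and 3 UMIs. The ratio of gated to other cells was 3.74 ± 1.15 (SD, n = 3) and above 1 in 3 of 3 animals. Gated cells were not the highest class: KRT14 and SPINK5 cells had 9.23, 52.0 and 18.3 CPM, with intervals that overlap those of gated cells in animals 1 and 3 (6.60 to 12.6 and 14.5 to 22.8) and not in animal 2 (46.6 to 57.9). The 105 DMP1 and IBSP cells of animal 2 had 57.5 CPM (46.7 to 70.0).

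Alk was also compared at equal depth and without the SPP1-rich cells. Cells with at least 10000 UMIs, each thinned to 10000, had an Alk UMI in 8.87% of 327, 20% of 125 and 13.0% of 185 gated cells, in 2.04%, 7.09% and 2.19% of other cells, and in 0 of 42, 0 of 61 and 0 of 49 MFAP4 and FIBIN cells (exact binomial upper limits of 8.41%, 5.87% and 7.25%). Without thinning the gated shares were 15.4%, 38.3% and 20%. In animal 2 the 33 SPP1-rich cells had 44 Alk UMIs, 47.8 CPM (34.7 to 64.2), and the other 108 gated cells 49, at 19.7 CPM (14.6 to 26.1), and these intervals do not overlap. Without the SPP1-rich cells the ratio to all other cells was 3.49 ± 1.53 (SD, n = 3). With the mean of per-cell p10k in place of summed counts it was 5.94.

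**Figure D4:**
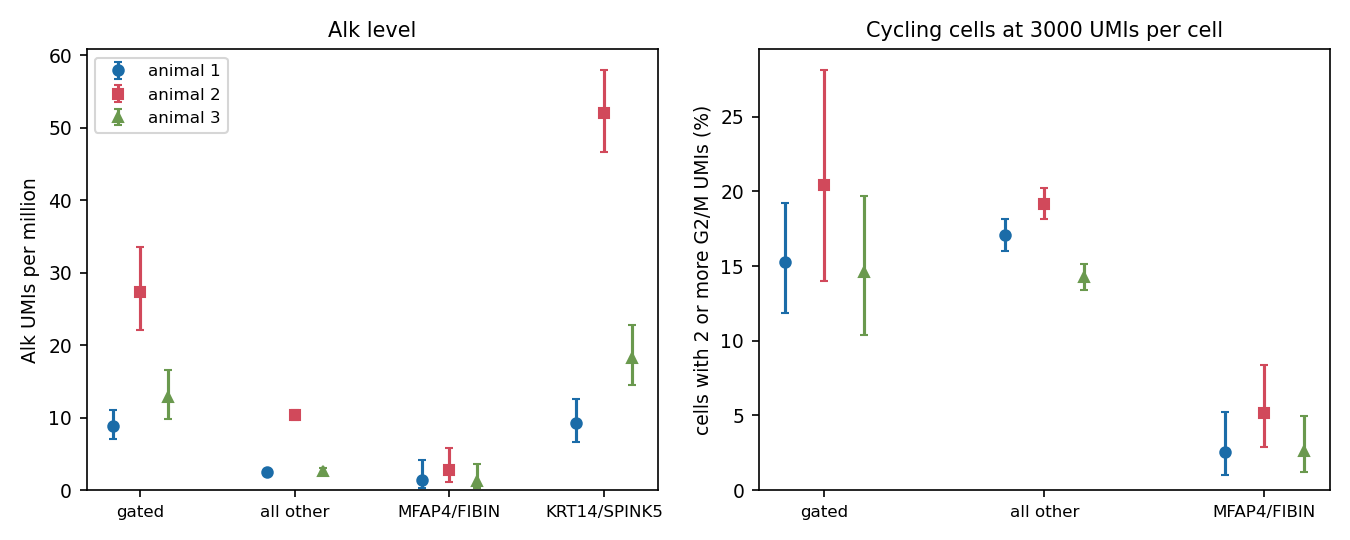
Left, Alk level in CPM (y axis) by cell class with 95% Poisson intervals. Right, share of cells with 2 or more UMIs of the G2/M list after thinning to 3000 UMIs (y axis, percent) with 95% exact binomial intervals. Each marker is 1 animal. Gated cells lie above MFAP4 and FIBIN cells in 3 of 3 animals in both panels and beside all other cells in the right one.

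Within gated cells the presence of an Alk UMI split 26, 25 and 22 cells from 301, 100 and 163, all thinned to 10000 UMIs. This was a separate random draw from that behind the shares above, so the counts differ slightly. Of 6590 genes tested with edgeR's quasi-likelihood test, with the animal as block and Benjamini-Hochberg adjustment, 2 (0.0303%) passed an adjusted p of 0.05, both lower in cells with an Alk UMI (0.0303%), and 0 were higher (0%). DESeq2 called 1. By edgeR 332 of the 6590 genes had an unadjusted p under 0.05, about the share of 0.05 that a test gives where no gene differs. Without the SPP1-rich cells 0 passed, with 362 of 5819 genes at an unadjusted p under 0.05. Without the block 0 passed, with 101 of 5910. Without animal 1, 13 passed, and without animal 2, 23. The other call was an identifier without a symbol. The named one was PRG4, the joint and pleural lubricin, at 3.85 against 6.64 CPM in animal 1, 4 against 61 in animal 2 and 13.6 against 103 in animal 3. Its log2 difference was -2.95 ± 0.48 (SE) with an edgeR adjusted p of 0.0373, lower in 3 of 3 animals. Cells with an Alk UMI held 260000, 250000 and 220000 thinned UMIs in animals 1, 2 and 3, so this call rests on few PRG4 UMIs. This call was lost under several settings. The adjusted p was 0.195 without the SPP1-rich cells, 0.122 in cells with no PTPRC UMI, 0.844 by DESeq2 and 0.942 after thinning to 5000 UMIs. Of 5 IGF binding proteins tested 0 passed. IGFBP2 among them was higher with an Alk UMI in 3 of 3 animals, by 0.70 ± 0.13, and missed the threshold with an edgeR adjusted p of 0.0933.

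The share of cycling cells was near that of all other cells and above that of MFAP4 and FIBIN cells. Cells under 3000 UMIs were left out, which were 30, 4 and 5 gated cells, 2810.0, 3195 and 1147 other cells and 40, 68 and 50 MFAP4 and FIBIN cells. The shares of all others therefore rest on their deeper cells. With the remaining cells thinned to 3000 UMIs, 15.3%, 20.4% and 14.6% of gated cells had 2 or more UMIs of the G2/M list, against 17.1%, 19.2% and 14.3% of all others and 2.58%, 5.15% and 2.64% of MFAP4 and FIBIN cells. Without thinning the gated share was 48.9%, 66.0% and 40.4%. Gated minus MFAP4 and FIBIN cells was 13.3 ± 1.75 percentage points (SD, n = 3), above 0 in 3 of 3 animals, with an exact two-sided sign-flip p of 0.25, the smallest that 3 animals can give. Gated minus all other cells was -0.0716 ± 1.59 points, with an exact p of 1. The G2/M list set the cycling share, so its genes add no separate support. Of 13 measured, 12 were tested, and AURKA fell below the filter. Of the 12, 11 were at least 2-fold higher than in MFAP4 and FIBIN cells in 3 of 3 animals, against 4.85% of all genes. Among them CDC20 was at 41.4, 47.6 and 37.6 against 4.31, 4.81 and 4.05 CPM. CDC20 passed the filter only through gated cells.

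Cycling gated cells had lower levels of several secreted proteases, complement and IGF binding proteins than the other gated cells, while most fibrillar collagens did not pass the test. Cells of at least 5000 UMIs were thinned to 5000 and split at 3 UMIs of the G2/M list, giving 55, 25 and 34 cycling and 326, 109 and 191 other cells. Before thinning the cycling cells were deeper, with medians of 26092, 28549 and 29123 UMIs against 19983, 21528 and 15641, and the part of this in the calls was not tested. Leaving out the cell cycle lists used to split them, edgeR's quasi-likelihood test with the animal as block called 498 of 5212 genes (9.55%), 239 higher (4.59%) and 259 lower (4.97%). DESeq2 called 174, and 99 passed without the block. Without animal 1, 229 passed, and without animal 3, 315. With a gate of 50 p10k 135 passed. The higher genes began with mitosis genes outside the lists: PRC1, a bundler of spindle microtubules, was at 146, 336 and 153 CPM against 3.07, 1.83 and 1.05, and TUBA1C and NUF2 rose as well. CCND1, cyclin D1, rose by 0.88 ± 0.20 (log2, SE) with an edgeR adjusted p of 0.000795.

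Secreted metalloproteinases fell in 3 of 6 tested, with a median log2 difference of -1.60 against -0.03 over all genes. MMP11 was at 69.1, 248 and 106 CPM in cycling cells against 392, 838 and 525, a log2 difference of -2.29 ± 0.19 with an edgeR adjusted p of 4.61e-20. MMP2, a gelatinase, fell by 1.51 (edgeR adjusted p 1.25e-11, or 0.0686 without the block) and MMP12, the macrophage elastase, by 2.16. CHI3L1, a secreted glycoprotein of matrix injury, was at 18.2, 32.0 and 23.5 CPM against 43.6, 613 and 269. Its log2 difference went from -3.43 to -0.37 with a gate of 50 p10k (edgeR adjusted p 0.680), and the call was also lost without the block (0.0592). Both tested complement genes fell, C1R by 1.80 and C1S by 2.60. Of 4 IGF binding proteins 3 fell. IGFBP2 fell by 0.63 in the fit, at 764 and 320.0 CPM against 1302 and 703 in animals 1 and 2, but stood at 735 against 598 in animal 3. COL3A1 fell by 0.81 ± 0.11 with an edgeR adjusted p of 6.85e-09, or 0.0693 without the block. COL1A2 stood at 3298, 2920.0 and 1665 CPM against 3863, 2189 and 1636 and did not pass (edgeR adjusted p 0.787). In all, 1 of 5 fibrillar collagens fell.

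**Figure D5:**
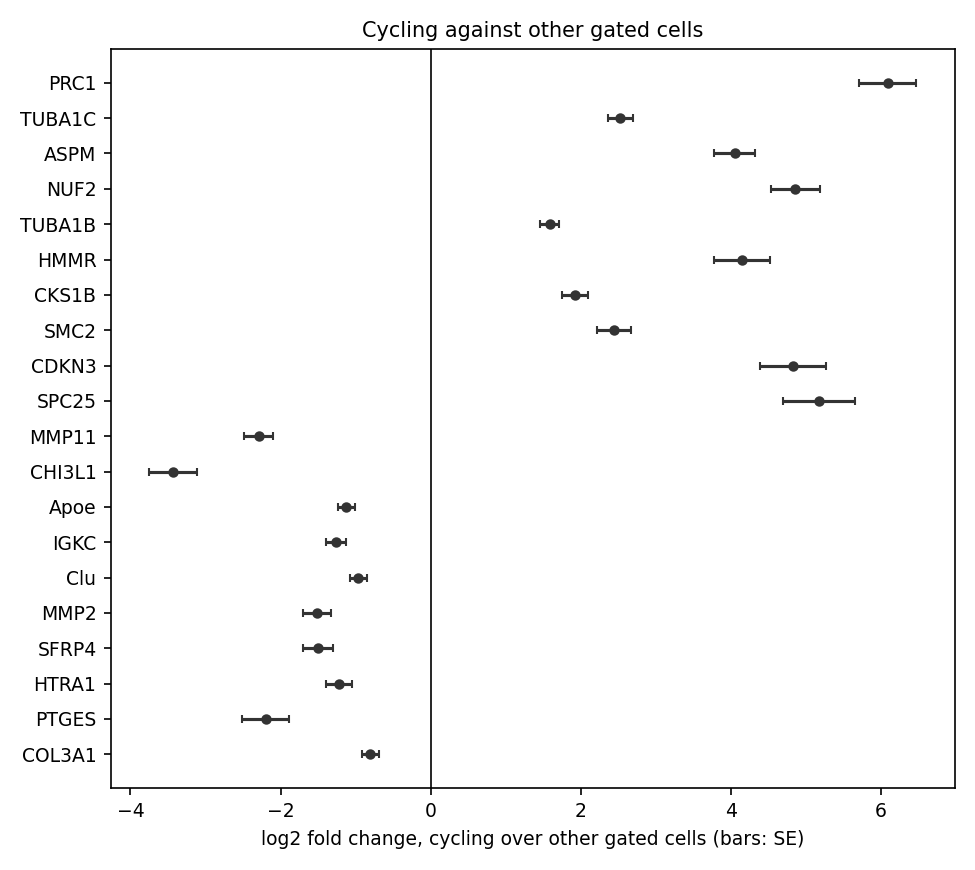
Log2 fold change of cycling over other gated cells (x axis, with bars for the SE from edgeR, 3 animals) for the 10 named genes of smallest p in each direction, cell cycle lists left out. The 10 higher genes belong to mitosis or tubulin and the lower ones are led by MMP11.

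IGKC, an immunoglobulin chain and the chief transcript of plasma cells, was among the lower genes at 1927, 1640.0 and 1641 CPM against 3914, 1938 and 6720.0. Its edgeR adjusted p was 2.39e-13, and the call was lost by DESeq2 (0.218), without the block (0.111) and with a gate of 50 p10k (0.0886). The IGKC call thus depended on the setting, and the part of plasma cell transcripts in the other calls was not tested. In gated cells with no PTPRC UMI 379 genes passed, and MMP11 was lower by a log2 difference of -2.55. SFRP4 had a log2 difference of -1.499 with an edgeR adjusted p of 8.77e-10. That call was lost by DESeq2 (adjusted p 0.854), without the block (edgeR adjusted p 0.558), after thinning to 10000 UMIs (0.202) and with a gate of 50 p10k (0.0634).

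Gated cells also varied with their MMP3 and IGF2 level, with SPP1-rich cells left out. Below 5 p10k for the pair were 65, 48 and 104 cells, between 5 and 20 p10k 120, 36 and 106, and at 20 p10k or more 235, 24 and 34, so animal 1 held most of the high cells. VGF was at 57.6, 150.4 and 88.4 CPM in the low cells, 65.2, 203 and 99.9 in the middle and 147, 391 and 301 in the high ones. It was lowest in the low cells and highest in the high cells of every animal. HMGA2 was at 10.5, 6.27 and 12.1 CPM in the low cells and 11.5, 15.3 and 18.1 in the high ones, with little difference in animal 1. Alk was at 13.7, 26.9 and 13.5 CPM in the low cells and 8.48, 10.2 and 11.5 in the high ones, with overlapping intervals. No test was made, since the pair is part of the rule.

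Some genes marked single animals, each a single summed value. In animal 1 interferon-induced genes were high, such as IRF7 at 226 CPM against 31.4 and 35.6 in animals 2 and 3, and ISG15 at 957 against 103 and 285. ISG15 was also highest in all other cells of animal 1, by a log2 ratio of 1.37 over the next animal. In animal 3 IGFBP5 was at 994.2 against 355 and 171 CPM, and MMP12 at 184 against 34.4 and 56.1. In animal 2 TMEM119, a membrane protein of osteoblasts and microglia, was at 123 against 23.0 and 16.7 CPM, and still at 99.8 in its gated cells without the SPP1-rich ones. TMEM119 was also highest in all other cells of animal 2, at 21.5 against 6.34 and 5.75 CPM. RPS29 was at 4019 against 1082 and 772 CPM and differed in a like way in all other cells, with a log2 ratio of 1.76 over the next animal.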

How the data were processed

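Each library's deposited matrix holds UMI counts, not normalized, per the file headers; barcodes number 9500, 10000 and 10000, limited in a way not given in the sources used here. Cell Ranger 7.1.0 is named in those headers and 8.0.0 in the submitters' processing notes; the genome build is not given in the sources used here. Of 23189 features 11611 had no symbol and were tested but not named. Cells needed 1000 UMIs, 500 genes and under 20% of UMIs in 13 mitochondrial genes. Scrublet (scanpy 1.11.5) marked 1, 0 and 0 cells of the whole libraries by its own threshold, so no doublets were removed. Counts were summed per animal and class, so deep cells weigh more. Thinning drew UMIs without replacement. Tests used edgeR 4.0.16 quasi-likelihood in R 4.3.3, with DESeq2 1.42.0 as alternative, checked on simulated counts. The animal was the block, since both sides of a split come from the same animals. Named genes were members of 36 lists, the 25 highest against all other cells, the 10 highest and lowest against MFAP4 and FIBIN cells, and the 10 of smallest p in each direction of a test. Genes of SPP1-rich cells, genes marking single animals, the SPP1 level and the MMP3 and IGF2 ranges were chosen after values were seen. Members and lists were chosen with earlier results of these data known.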

Additional observations from a re-analysis of the deposited data

How the results depend on the processing

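The Alk ratio of gated to all other cells was 5.94 with the mean of p10k over cells (3.74 as reported). A filter at 1 CPM gave 1039 genes lower than in all other cells and 923 lower than in MFAP4 and FIBIN cells (683 and 571), with more genes tested. The log2 ratio of SPP1 to MFAP4 and FIBIN cells changed sign, to -0.38, without cells at 20 p10k of SPP1 or more, an alternative chosen after seeing the data. Genes that differed by the presence of an Alk UMI numbered 1 by DESeq2 and 40 with no filter on low counts, against 2 reported. The number was 4 after thinning to 5000 UMIs. It was 0 with no PTPRC UMI (263 of 5204 genes at an unadjusted p under 0.05 by edgeR) or with SPP1 under 20 p10k. Leaving out 1 animal gave 2 to 23. Genes that differed between cycling and other gated cells numbered 174 by DESeq2 and 135 with a gate of 50 p10k, against 498, and 229 to 412 with 1 animal left out. The cause of these moves was not tested. Leaving out 1 animal gave shares in the gate of 2.32% to 4.16%, Alk ratios of 3.14 to 4.29 and cycling differences of 12.3 to 14.0 points.

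The replicate block pairs cells of the same animal. Without it the Alk split gave 0 genes (101 of 5910 at an unadjusted p under 0.05 by edgeR) and the cycling split 99. Over the alternatives, the ratios of named and listed genes to all other cells moved by more than the spread between animals in 278 cases and by less in 1306. Those to MFAP4 and FIBIN cells did so in 202 and 1381, with the sign change of SPP1 as the 1 other.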
